A study of Mus musculus with 48 samples.

Results

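RNA of whole skin from the ventral and the dorsal side of mice in refractory telogen was compared across all genes. Refractory telogen is the early part of the second resting phase of the hair cycle, when follicles do not answer signals for growth. The comparison was set by the labels alone: 2 libraries of ventral skin were compared with 2 libraries of dorsal skin, out of 43 libraries of the skin domains and 48 samples of the series. The series covers dorsal, ventral and chin skin at 6 stages of the hair cycle and telogen ear tissues, and asks how skin regions differ in the pace of hair growth. All 4 libraries came from C57BL/6 skin, with no treatment or transgene in the labels. Sex and the day of sampling of these libraries are not given in the sources used here, and nothing says whether RNA of several mice was pooled or whether replicates came from different mice. The p-values therefore measure the spread between these samples, which may be technical.

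Whole skin is a mixture of epidermis, hair follicles, dermis, fat and the thin muscle sheet beneath it. The muscle sheet, the panniculus carnosus, consists of striated fibres, and dermal white fat expands and shrinks with the hair cycle. Ventral skin of mice also lies over the mammary glands. In RNA of whole tissue, fewer cells of a type and less RNA per cell cannot be told apart.

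The deposited values were FPKM, fragments scaled to transcript length and to the size of the library, and all fold changes below are differences of log2(FPKM + 1), which understate the change of genes near 0. Estimated depths were 14706570 and 17086597 fragments for ventral replicates 1 and 2 and 20744774 and 27283834 fragments for dorsal replicates 1 and 2. The dorsal replicates were closer to each other than the ventral ones, with Pearson correlations across genes of 0.986 and 0.956, and ventral against dorsal libraries had 0.949 to 0.954. The labelled stage was checked against gene lists. The mean log2(FPKM + 1) of 24 cell cycle genes was 2.44 to 2.65 in the 4 libraries, against 3.75 to 5.15 in the ventral and dorsal libraries of other stages except ventral early anagen, at 2.31 to 2.46. The mean of 35 hair shaft and inner root sheath genes, which are made in growing follicles, was 9.12 to 9.33. It was 9.42 to 9.59 in late anagen, so these genes were not low in the libraries labelled refractory telogen. The keratin Krt14 of the basal epidermis was at 3831.69 to 3985.11 FPKM in all 4 libraries, and the groups overlapped.

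Of 46983 genes in the table, 17669 had at least 0.5 FPKM in at least 2 of the 7 refractory telogen libraries, the 3 chin libraries included. At an adjusted p under 0.05 (limma, Benjamini-Hochberg), 629 of them differed (3.56%). Ventral skin was higher for 410 genes (2.32%) and dorsal skin for 219 (1.24%). The median difference over all genes tested was -0.02, and the libraries of the groups did not overlap for 46.4% of the genes. Among the called genes, 384 of the 410 and 117 of the 219 were protein-coding by GENCODE vM21. The ventral calls were 65.2% of all calls, and after rescaling to TPM they were 53.6%, at 228 against 197 genes, with a median of -0.11 over all genes. The direction of this balance rested on 1 library. Without ventral replicate 1, 970 genes were higher in ventral and 1833 in dorsal skin, and without ventral replicate 2 the counts were 636 and 285. Without either ventral library in turn, 304 of the 410 and 155 of the 219 calls were kept. Without dorsal replicate 1 the counts fell to 78 and 15, and without dorsal replicate 2 to 71 and 10. Without chin replicate 1, 2 and 3 in turn they were 230 and 138, 571 and 279, and 203 and 131. Of the called genes, 13 ventral and 40 dorsal ones reached 0.5 FPKM in under 2 libraries outside the side where they were higher, so that the filter passed them through that side.

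**Figure D1:**
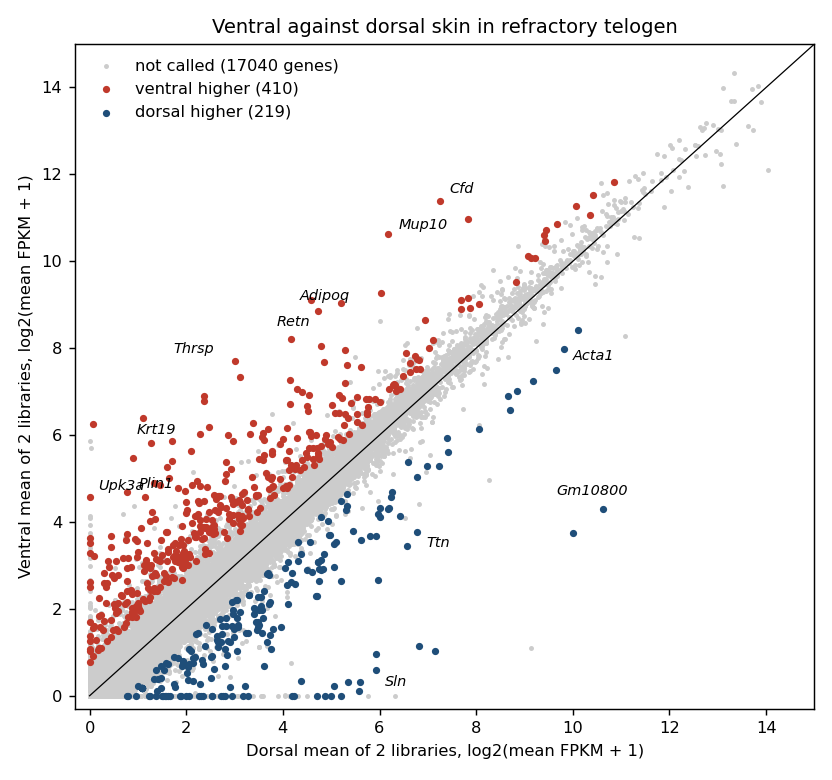
Mean level of each tested gene in 2 dorsal (x axis) and 2 ventral (y axis) refractory telogen libraries, as log2(mean FPKM + 1), with 410 genes called higher in ventral and 219 called higher in dorsal skin coloured. The line marks equal levels. Fat genes such as Adipoq and Retn lie above it, and muscle genes such as Sln, Ttn and Acta1 lie below it.

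Genes of skeletal muscle were lower in ventral skin. The gene lists here and below were chosen with earlier results of these data known. Their counts beside the share of all genes describe the members and are no independent support. Of 33 tested members of a list of 34 muscle genes, 24 were higher in dorsal skin and 0 in ventral skin, where 1.24% of all genes were higher in dorsal skin. The list's median difference was -1.81, against -0.02 over all genes. The mean level of the list was 3.84 and 3.91 in ventral skin against 5.41 and 5.39 in dorsal skin on the log2(FPKM + 1) scale. The 3 chin libraries were above both, at 6.63 to 7.21.

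The giant sarcomere protein titin (Ttn) had the largest difference of the list. It was at 9.94 and 15.16 FPKM in ventral skin and at 108.46 and 109.16 FPKM in dorsal skin, a difference of -3.05 ± 0.42 (SE, adjusted p = 0.0129). The fast myosin heavy chain Myh4 was at 19.09 and 13.87 FPKM in ventral skin and 84.36 and 85.99 FPKM in dorsal skin (-2.32 ± 0.23, adjusted p = 0.00382). Both genes were several times lower in each ventral library than in each dorsal one. The fast myosin Myh1 was at 4.35 and 3.52 against 25.57 and 23.99 FPKM (-2.39, adjusted p = 0.0351). Skeletal alpha-actin (Acta1), the actin of the thin filament, was at 233.39 and 267.61 against 922.55 and 875.39 FPKM (-1.84, adjusted p = 0.00937). The fast troponins Tnnt3, Tnni2 and Tnnc2, which make contraction respond to calcium, differed by -1.85, -2.17 and -1.69. Neither group overlapped the other for any of these genes. Other called members were the myosin light chains Myl1 and Mylpf, the creatine kinase Ckm, the calcium store protein Casq1, the calcium channel subunit Cacna1s and the release channel Ryr1, with differences between -2.15 and -1.21.

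Of the 9 tested members that did not pass the test, 6 were genes of slow, cardiac or developing fibres. The slow troponins Tnnt1 and Tnni1 were at 2.46 and 3.96 and at 2.66 and 3.98 FPKM in ventral skin, and at 3.44 and 3.32 and at 3.59 and 3.53 FPKM in dorsal skin. The ventral values of both lay on either side of the dorsal ones. The slow or cardiac light chains Myl2 and Myl3 did not exceed 0.93 FPKM in any of the 4 libraries, and the perinatal myosin Myh8 did not exceed 0.47 FPKM. The calcium pump Atp2a1 was at 213.36 and 74.17 against 278.60 and 288.72 FPKM, and its ventral replicates differed more than the groups (adjusted p = 0.274). Myh7, the slow myosin, stayed under the level for testing, at up to 0.02 FPKM.

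Outside the list, the rule for the largest differences named the sarcoplasmic reticulum regulator sarcolipin (Sln), the muscle LIM protein Csrp3 and Apobec2. Sln was at 0.67 and 0.34 FPKM in ventral skin and 58.25 and 61.17 FPKM in dorsal skin, the largest difference among these at -5.34 ± 0.28 (adjusted p = 0.000332). Its chin libraries were at 11.06 to 20.99 FPKM, below the dorsal ones, although for Ttn, Myh4, Myh1 and Acta1 the chin libraries were the highest. Csrp3 was at 6.67 and 3.93 against 61.00 and 62.34 FPKM, and Apobec2 at 8.32 and 11.60 against 97.04 and 89.63 FPKM. Without dorsal replicate 1 or 2, 2 and 1 of the 33 muscle genes passed the test, while the list's median stayed at -1.79 and -1.82.

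**Figure D2:**
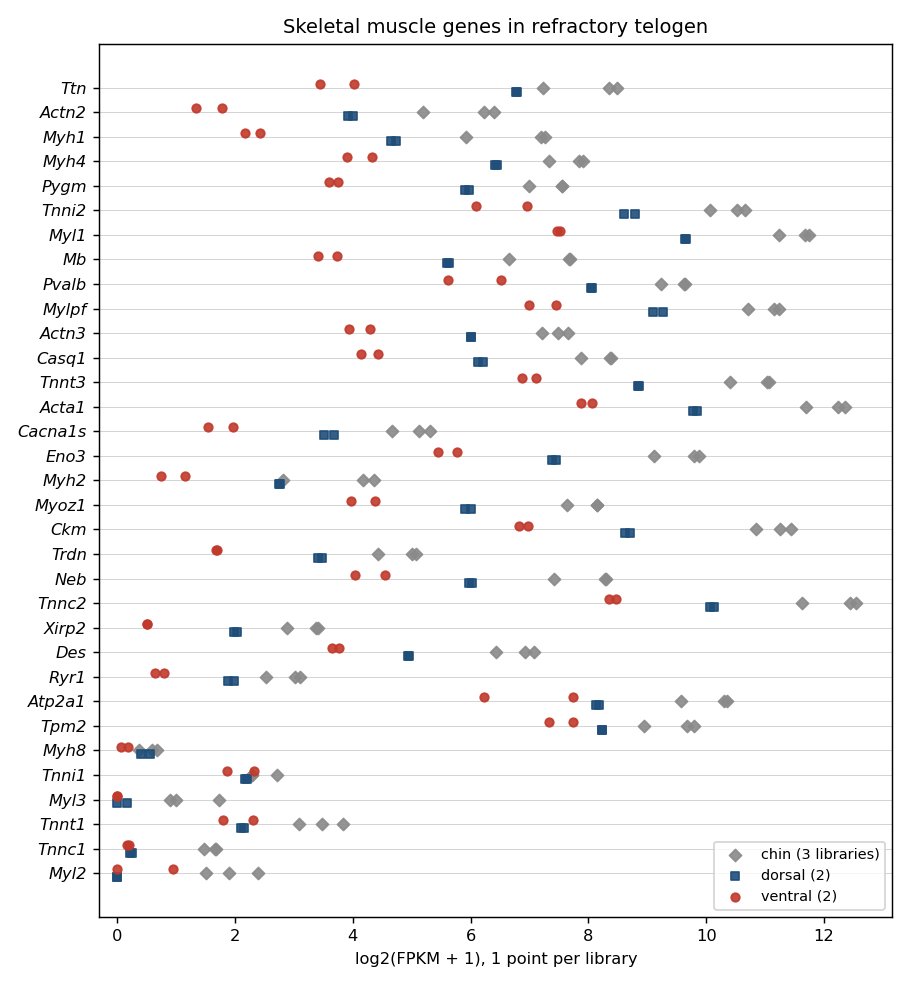
Level of each tested skeletal muscle gene, log2(FPKM + 1), with 1 point per library, ordered by the ventral minus dorsal difference. For Ttn and the fast myosins the ventral points lie left of the dorsal ones and the chin points right of them, and for the slow genes at the bottom the ventral and dorsal points lie together.

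Since the fast muscle genes moved together, their promoters were read for motifs of muscle transcription factors. A window of 250 bases before to 50 after the start site was taken from RefSeq on GRCm38.p6, and 27 of the 33 tested muscle genes had one. The E-box CAGCTG, which reads the same on both strands and is the form bound by MyoD and related factors, was in 15 of the 27 (55.6%) and in 11 of the 18 called members (61.1%). It was in 18.4% of 11419 tested genes with a window and in 16.3% of 32851 windows of all genes. A gene was counted if any of its windows held the letters. The letters CTANNNNTAG, with any base allowed at each N, are a loose form of the A and T rich MEF2 site. They were in 3 of the 27 (11.1%), in 3.86% of tested genes and in 3.69% of all windows. TATAAA, searched on both strands, was in 8 of the 27 (29.6%), in 10.5% of tested genes and in 13.6% of all windows. A match is a description of letters and not a bound site. The 130 bases before the start site are shown for 3 called muscle genes with the E-box in that stretch, with the E-box and, in Myh4, the TATAAA nearest to the start in capitals. All 3 are on the plus strand of GRCm38.p6, Myh4 at chr11:67237682-67237811, Mylpf at chr7:127211478-127211607 and Cacna1s at chr1:136052681-136052810. The first base of the E-box was at position -67 in Myh4, -51 in Mylpf and -123 in Cacna1s, counted from the start site, and that of the TATAAA in Myh4 at -31.
Myh4: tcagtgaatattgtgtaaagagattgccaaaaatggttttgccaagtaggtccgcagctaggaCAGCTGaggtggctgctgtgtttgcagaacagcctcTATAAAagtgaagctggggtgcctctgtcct
Mylpf: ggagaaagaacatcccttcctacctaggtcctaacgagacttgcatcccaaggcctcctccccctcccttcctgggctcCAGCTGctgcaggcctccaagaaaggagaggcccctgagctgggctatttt
Cacna1s: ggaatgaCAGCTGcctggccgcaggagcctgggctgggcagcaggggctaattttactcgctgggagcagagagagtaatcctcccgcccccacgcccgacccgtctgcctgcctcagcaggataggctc

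Genes of fat cells were higher in ventral skin. Of 28 members of the adipocyte and lipid storage list, all tested, 16 were higher in ventral skin and 0 in dorsal skin, where 2.32% of all genes were higher in ventral skin. The list's median difference was 1.75. Its mean level was 5.99 and 5.49 in the ventral libraries, 3.75 and 3.71 in the dorsal libraries and 5.74 to 5.88 in the chin libraries.

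Among the adipokines, the hormones that fat cells secrete, adiponectin (Adipoq) was at 421.05 and 509.61 FPKM in ventral skin and 25.27 and 25.59 FPKM in dorsal skin (4.13 ± 0.13, adjusted p = 7.93e-05). The chin libraries were at 344.74 to 358.25 FPKM, close to the ventral ones. Resistin (Retn) was at 260.36 and 331.09 against 17.86 and 16.18 FPKM (4.03, adjusted p = 0.000116). The complement protease adipsin (Cfd) was at 1775.89 and 3600.28 against 156.31 and 147.98 FPKM, with ventral replicates that differed widely but both lay far above the dorsal ones (4.05, adjusted p = 0.00127). Leptin (Lep), the satiety hormone, was at 10.82 and 2.90 against 0.33 and 0.31 FPKM (2.36 ± 0.46, adjusted p = 0.0436).

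The lipid droplet proteins moved with them. Perilipin 1 (Plin1), the coat of the storage droplet, was at 27.22 and 22.56 FPKM in ventral and 0.64 and 0.80 FPKM in dorsal skin (3.91, adjusted p = 0.000116). Cidec, which fuses droplets, was at 185.44 and 138.22 against 7.24 and 8.12 FPKM (4.22, adjusted p = 0.00029). The lipase of the vessel wall Lpl was at 179.48 and 125.88 against 16.62 and 16.97 FPKM (3.09, adjusted p = 0.000631). Pparg, the nuclear receptor that drives fat cell differentiation, was at 17.36 and 12.03 against 3.59 and 3.15 FPKM (1.83, adjusted p = 0.00506). For all of these the dorsal libraries lay below the ventral and the chin libraries.

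Members of fat synthesis were less uniform. Fatty acid synthase (Fasn) was at 108.37 and 97.56 against 32.05 and 31.00 FPKM (1.67, adjusted p = 0.00209). The desaturase Scd1 was at 504.39 and 199.19 against 107.17 and 108.79 FPKM (1.55, adjusted p = 0.0909), and the citrate lyase Acly at 62.90 and 18.84 against 24.79 and 25.23 FPKM (0.45, adjusted p = 0.682). In both, ventral replicate 1 was well above ventral replicate 2, and for Acly the groups overlapped. Skin also makes these enzymes in its sebaceous glands. Of 15 sebaceous gland genes 2 were higher in ventral skin, against 2.32% of all genes, with a list median of -0.04. These were Pparg, which is also in the fat list, and Mgst1. Thrsp, a regulator of fat synthesis named by the rule, was at 225.53 and 192.01 against 6.78 and 7.28 FPKM (4.70 ± 0.14, adjusted p = 7.93e-05). The retinol carrier Rbp4 was at 113.10 and 106.18 against 4.33 and 3.96 FPKM (4.43, adjusted p = 9.19e-05). Of 6 tested genes of a brown fat list, only Cox7a1 was called, higher in dorsal skin, and the uncoupling protein Ucp1 stayed below the level for testing. The mean level of this list was 3.997 and 3.972 in ventral, 4.679 and 4.699 in dorsal and 5.633 to 6.049 in chin skin. This order of the regions was that of the skeletal muscle list and not that of the adipocyte list. Whether the Cox7a1 transcripts came from fat or from muscle was not tested.

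**Figure D3:**
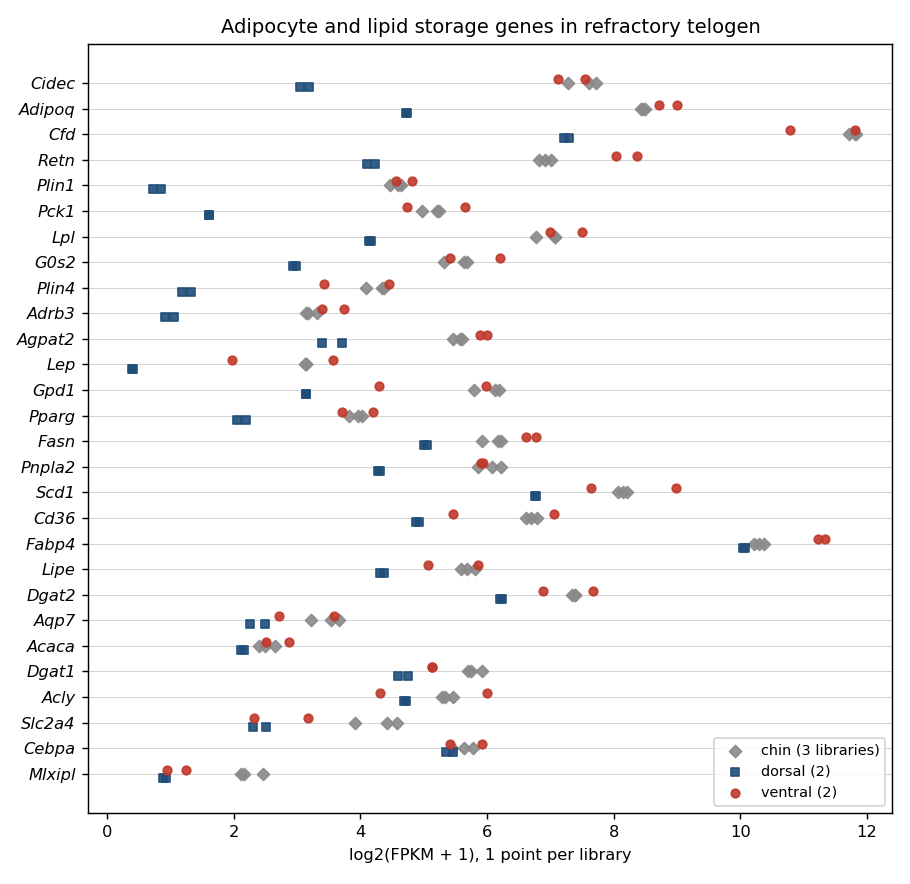
Level of each adipocyte and lipid storage gene, log2(FPKM + 1), with 1 point per library, ordered by the ventral minus dorsal difference. For Adipoq, Plin1 and Cidec the 2 dorsal libraries lie apart to the left, while the ventral and chin libraries lie near each other.

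In the promoter windows of 20 tested fat genes, the palindrome TTGCGCAA, a site form of the C/EBP family, was found in Lep alone. It was in 0.315% of all tested genes with a window and in 0.183% of all windows. The direct repeat AGGTCANAGGTCA, searched on both strands, was in 0 of the 20, in 0.035% of tested genes and in 0.0396% of all windows. The 130 bases before the start of Lep, at chr6:29060091-29060220 on the plus strand, are shown with the palindrome in capitals, and its first base lies at position -55.
Lep: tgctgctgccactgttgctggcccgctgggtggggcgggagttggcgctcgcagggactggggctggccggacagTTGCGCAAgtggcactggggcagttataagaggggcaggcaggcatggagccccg

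Keratins of simple epithelia and secreted milk-type proteins were higher on the ventral side. Of 20 tested genes of a list of mammary epithelium, 8 were higher in ventral skin and 0 in dorsal skin, against 2.32% of all genes, and the median difference of the list was 0.75. Krt19, a keratin of simple and ductal epithelia, was at 58.08 and 52.93 FPKM in ventral skin, 1.18 and 1.65 FPKM in dorsal skin and 2.61 to 3.62 FPKM in chin skin (4.55 ± 0.18, adjusted p = 0.00012). Krt8, which pairs with Krt18, was at 24.14 and 28.60 against 2.66 and 2.47 FPKM (2.94, adjusted p = 0.000312). Krt18 was at 55.39 and 61.92 against 14.80 and 15.41 FPKM (1.89, adjusted p = 0.015). All 3 keratins were low in the chin as well, unlike the fat genes.

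Kappa-casein (Csn3), which stabilises milk micelles, was at 12.99 and 22.62 FPKM in ventral and 1.24 and 1.67 FPKM in dorsal skin (2.89, adjusted p = 0.00532). Lactoferrin (Ltf), an iron-binding protein of milk and other secretions, was at 9.87 and 7.61 FPKM in ventral skin and listed at 0 in both dorsal libraries. The luminal transcription factor Foxa1 was at 1.21 and 0.87 FPKM and also listed at 0 in dorsal skin. Both reached the level for testing through the ventral libraries alone, so their calls are no independent test, and the other 6 of the 8 calls did not depend on this. The prolactin receptor Prlr was at 10.14 and 8.55 against 4.15 and 4.32 FPKM (0.98, adjusted p = 0.0226), but its chin libraries were at 9.44 to 11.12 FPKM. The milk genes Wap, Csn1s1, Csn2 and Lalba were at 0.26 FPKM or less in all 4 libraries, 0 in most, and were not tested. Without dorsal replicate 1 or 2, 3 of the 20 genes of the list passed the test. Epcam, Cldn4 and Gata3, which epidermis and follicles also express, differed by -0.10, -0.07 and -0.20 and did not pass the test.

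Upk3a, a uroplakin of the bladder lining, was at 24.96 and 20.67 FPKM in ventral skin and listed at 0 in the dorsal and the chin libraries. It too reached the level for testing through the ventral libraries alone, so no p is given. It was part of a list of the mesothelium, the lining of body cavities. Of 12 tested genes of that list 4 were higher in ventral skin, against 2.32% of all genes. The other 3 were Krt19, Krt18 and Krt8, which are also in the mammary list. The mesothelial genes Msln, Wt1, Lrrn4 and Muc16 were at 0.12 FPKM or less in all 4 libraries. Further genes of secretory epithelia were chosen after their values were seen. The protease inhibitor Wfdc2 was at 5.91 and 10.67 against 0.14 and 0 FPKM, the water channel Aqp5 at 11.33 and 12.95 against 0.71 and 0.73 FPKM, and the transcription cofactor Cited1 at 22.59 and 33.02 against 3.06 and 3.66 FPKM, and the groups did not overlap. The fibrinogen chain Fgg was at 10.59 and 10.39 FPKM in ventral skin and listed at 0 in dorsal and chin skin. Others looked at in the same way were closer between the sides, with the mucin Muc1 at 0.82 and 1.40 against 0.39 and 0.11 FPKM, the claudin Cldn10 at 8.11 and 10.26 against 6.10 and 6.24 FPKM and the transcription factor Sox10 at 3.44 and 3.31 against 2.23 and 1.79 FPKM, with adjusted p of 0.221, 0.253 and 0.239. The source of these transcripts among the cells of ventral skin was not tested.

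In ventral skin of the other stages Krt19, Upk3a and Csn3 were lower than in refractory telogen. Krt19 lay at 23.6 to 25.68 FPKM in 3 ventral and 3.85 to 6.83 FPKM in 2 dorsal libraries of early anagen, and at 2.29 to 7.08 FPKM in ventral skin from mid anagen to catagen and at competent telogen. Upk3a lay at 3.11 to 5.94 FPKM in ventral early anagen and at no more than 0.63 FPKM in all other ventral or dorsal libraries of the other 5 stages. Csn3 lay at 7.44 to 9.49 FPKM in ventral and 0 to 0.12 FPKM in dorsal early anagen. The difference in refractory telogen exceeded the mean of the other 5 stages by 4.25 ± 0.29 for Krt19 (SE, limma on 43 libraries), by 2.71 for Krt8 and by 2.18 for Csn3. The refractory telogen values that set these genes apart also enter these departures. No p is therefore given, and the departures are no independent support.

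**Figure D4:**
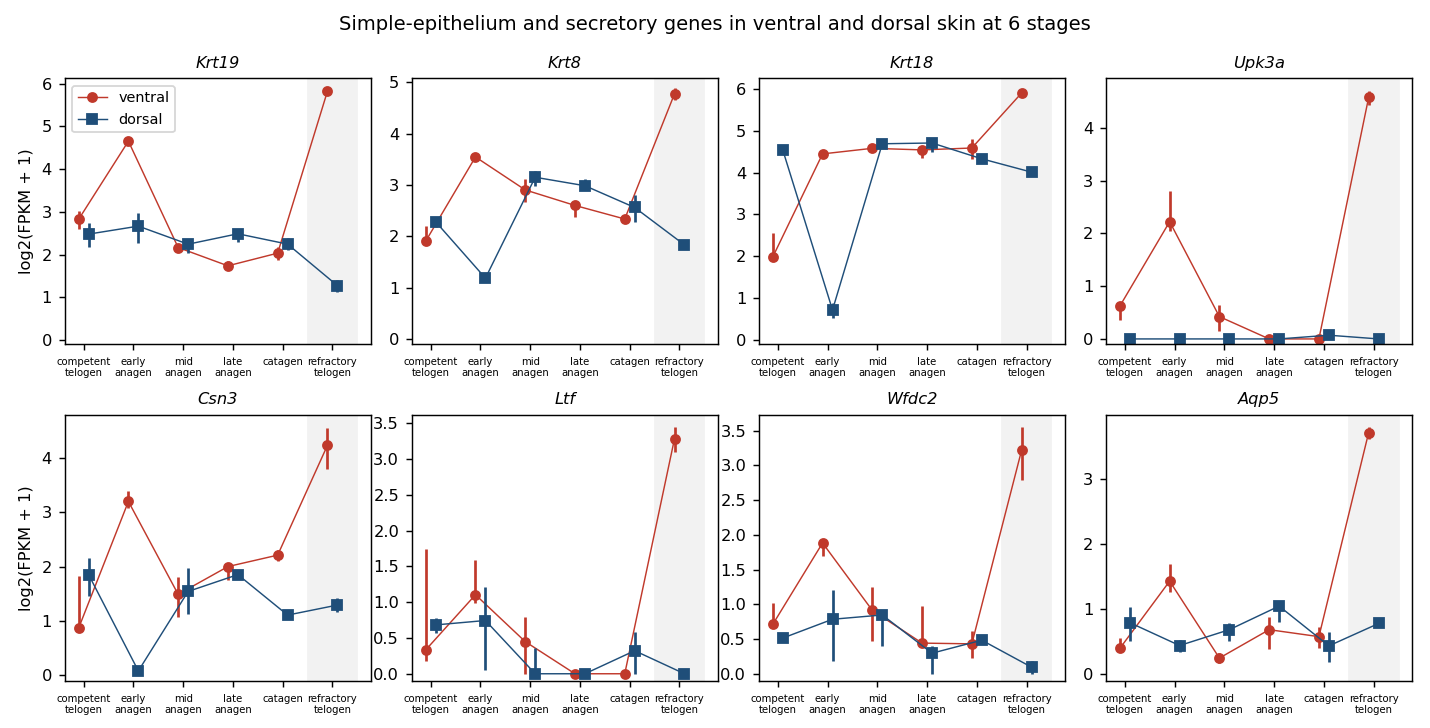
Levels of 8 genes of simple or secretory epithelia in ventral and dorsal skin at 6 stages, log2(FPKM + 1). Points mark the median of 2 or 3 libraries and vertical lines the lowest to highest library. The ventral refractory telogen libraries (shaded) lie highest in each panel, and ventral early anagen is next for Krt19, Krt8, Upk3a and Csn3.

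Of 21 tested genes of hormone and IGF signalling, 9 were higher in ventral skin and 0 in dorsal skin, against 2.32% and 1.24% of all genes, with a list median of 0.78. Among other growth factors, 0 of 18 FGF, 0 of 16 TGF-beta and activin and 0 of 9 BMP and GDF ligand genes passed (limma). Of these 1, 4 and 0 had an unadjusted p under 0.05, against 3186 of all 17669 genes. Of 13 Wnt ligand genes 1 passed, where 3.56% of all genes were called in either direction. At that share lists of this size would hold few calls, so the counts do not set these families apart. Igf1, a growth factor made by dermal cells and fat, was at 29.09 and 30.64 FPKM in ventral skin, 3.12 and 4.15 FPKM in dorsal skin and 25.86 to 29.80 FPKM in chin skin (2.74 ± 0.16, adjusted p = 0.000415). The growth hormone receptor Ghr was at 48.57 and 42.33 against 11.53 and 10.73 FPKM (1.93, adjusted p = 0.000848). Hsd11b1, which regenerates active glucocorticoid, was at 14.17 and 17.61 against 1.72 and 1.38 FPKM (2.72, adjusted p = 0.00079). The groups did not overlap for any of the 3. The IGF binding proteins Igfbp4, Igfbp6 and Igfbp7 were higher in ventral skin by 0.74, 1.98 and 1.34. The IGF receptor Igf1r differed by -0.22 and did not pass. Without dorsal replicate 1 or 2, 3 of the 21 passed the test in each case.

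The genes of the major urinary proteins, carriers of scent molecules that are near-identical copies on chromosome 4, were abundant in ventral skin. Fragments shared between copies may be split among them, so the family is given by its sum, and the family was chosen after its values were seen. The sum over 21 Mup genes was 2793.2 and 2334.7 FPKM in ventral skin, 109.3 and 110.6 FPKM in dorsal skin and 1223.7 to 1864.5 FPKM in chin skin. Mup10 was at 1716.40 and 1421.17 against 72.33 and 69.43 FPKM (4.44 ± 0.26, adjusted p = 0.000415). At each of the other 5 stages the sum was lower in ventral than in dorsal skin, with no overlap of the libraries. It was 1100.9 to 1582.7 FPKM in ventral against 1848.1 to 1853.7 FPKM in dorsal competent telogen, 39.6 to 44.1 against 292.1 to 298.2 FPKM in early anagen and 389.0 to 452.4 against 559.2 to 607.2 FPKM in catagen. In mid and late anagen it was 13.2 to 59.7 and 91.1 to 103.5 FPKM in ventral skin against 353.1 to 386.6 and 311.8 to 325.9 FPKM in dorsal skin. The dorsal refractory telogen libraries were the lowest of dorsal skin and the ventral ones the highest of ventral skin.

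Among lists of immune cells, those of macrophages and mast cells held several genes higher in ventral skin. Of 23 tested macrophage genes 8 were higher in ventral skin and 0 in dorsal skin, against 2.32% and 1.24% of all genes, with a median of 0.94. Of 12 genes of Langerhans and dendritic cells 1 was called, higher in ventral skin, with a median of 0.54. The complement subunit gene C1qb, made by tissue macrophages, was at 63.59 and 66.87 FPKM in ventral skin and 10.94 and 11.05 FPKM in dorsal skin (2.46 ± 0.26, adjusted p = 0.00456). The lysozyme Lyz2 was at 194.18 and 194.87 against 39.44 and 38.85 FPKM (2.28, adjusted p = 0.00841). Chin skin was higher than both, at 79.27 to 137.25 and 302.57 to 537.68 FPKM. C1qa, C1qc, Lyz1, Cd14, Mrc1 and Tyrobp were the other called members. Common macrophage receptors such as Adgre1, Csf1r and Cd68 differed by 1.13, 0.56 and 0.62 and did not pass the test. Without dorsal replicate 1 or 2, 0 of the 23 passed (limma), 12 had an unadjusted p under 0.05 in each case, and the medians were 1.02 and 1.00.

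The mast cell proteases were higher in ventral skin by 2.28 for Cma1, 2.55 for Tpsb2, 1.82 for Mcpt4 and 1.54 for Cpa3, with adjusted p of 0.00299, 0.00481, 0.0207 and 0.0348. Cma1, the chymase, was at 32.20 and 34.97 against 5.90 and 6.33 FPKM. These were 4 of 10 tested mast cell genes (2.32% of all genes), and Kit, Hdc and Mrgprb2 differed by 0.02, 0.09 and -0.23 without passing. Without ventral replicate 2, 2 of the 10 passed, and without dorsal replicate 1 or 2, 1. Of 38 tested chemokine and cytokine genes 4 were called, all higher in ventral skin, against 2.32% of all genes. The eosinophil attractant Ccl24 was at 7.12 and 8.85 against 0.73 and 0.72 FPKM (2.37, adjusted p = 0.00199). Ccl6 and Ccl7 differed by 2.07 and 1.65, and the hyaluronan-binding Tnfaip6 was the other called gene. This count was 8 without chin replicate 2, 6 without ventral replicate 2 and 2 without dorsal replicate 2. Il1b, Il6 and Tnf did not exceed 2.75 FPKM in any of the 4 libraries, and none passed. Of 14 tested T and B cell genes, Ighm alone was called, higher in ventral skin (1.90, adjusted p = 0.0033), where 2.32% of all genes were. Of 6 neutrophil genes 0 were called (limma), with 0 at an unadjusted p under 0.05, where 3.56% of all genes were called. Lists of this size would hold few calls at these shares. Haemoglobin mRNA was also higher in value in ventral skin, with Hba-a2 at 1003.17 and 1600.86 against 464.97 and 471.50 FPKM (adjusted p = 0.176). The part of blood left in the samples in these differences was not tested.

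Genes of the dermal matrix were higher in ventral skin for 12 of 33 tested members and in dorsal skin for 0, against 2.32% and 1.24% of all genes, with a median of 0.99. Dermatopontin (Dpt), which binds collagen and decorin, was at 193.15 and 183.05 against 46.67 and 48.77 FPKM (1.96 ± 0.11, adjusted p = 0.000378). The microfibril protein Mfap5 was at 113.13 and 87.96 against 21.52 and 21.87 FPKM (2.15, adjusted p = 0.00209), and the small proteoglycan decorin (Dcn) at 554.22 and 588.54 against 227.57 and 225.86 FPKM (1.33, adjusted p = 0.0475). The main fibrillar collagens were higher in both ventral libraries, with Col1a1 at 797.81 and 448.51 against 323.03 and 365.69 FPKM and Col3a1 at 791.48 and 568.92 against 280.51 and 278.76 FPKM, and did not pass (adjusted p = 0.399 and 0.0898). The groups did not overlap for 31 of the 33, against 46.4% of all genes. The called matrix genes numbered 5 after rescaling to TPM, 7, 21 and 5 without chin replicate 1, 2 and 3, and 3 and 2 without dorsal replicate 1 and 2.

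Smooth muscle, the tissue of vessel walls and of the muscles that raise hairs, differed in the opposite direction from skeletal muscle. Of 15 tested genes 4 were higher in ventral skin, against 2.32% of all genes. Smooth muscle actin (Acta2) was at 101.07 and 128.16 against 36.51 and 35.81 FPKM (1.63 ± 0.22, adjusted p = 0.0121), and Cnn1, Actg2 and Tagln differed by 1.74, 1.51 and 0.80. Desmin (Des), which striated muscle also makes, was the 1 member higher in dorsal skin (-1.24, adjusted p = 0.0317). The contractile myosin Myh11 was at 5.34 and 4.11 against 2.05 and 1.95 FPKM and did not pass (adjusted p = 0.155). The 4 ventral calls fell to 2 and 1 without chin replicate 1 and 3, to 2 without ventral replicate 2 and to 1 after rescaling to TPM. They fell to 0 without dorsal replicate 1 or 2 (limma), where 7 genes had an unadjusted p under 0.05. Myoepithelial cells of glands also make smooth muscle genes, and their part was not tested.

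Genes that mark position along the body are given beside the 3.56% of all genes that were called. Of 26 tested Hox genes 0 were called (limma), 2 had an unadjusted p under 0.05, and Hoxa5, with the lowest adjusted p of the list, was at 0.48 and 0.77 against 2.52 and 2.65 FPKM (-1.15, adjusted p = 0.0982). Of 34 other positional transcription factors 2 were called, both higher in ventral skin, where 2.32% of all genes were. At these shares lists of this size would hold few calls, so the counts do not set positional genes apart. Twist2, a regulator of dermal fibroblasts, was at 5.79 and 8.20 against 2.43 and 3.16 FPKM (1.07, adjusted p = 0.0495), and Shox2 at 4.60 and 3.97 against 1.48 and 1.77 FPKM (1.01, adjusted p = 0.0468). The 2 calls were lost, leaving 0 (limma), without dorsal replicate 1 or 2, ventral replicate 2 or chin replicate 1 or 3, after rescaling to TPM, with no filter and with the 4 libraries alone, with 4 genes at an unadjusted p under 0.05 without dorsal replicate 1 or 2. The limb and body wall factors Tbx5, Tbx15 and En1 did not exceed 4.05 FPKM and were not called.

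Follicle and epidermal lists are given beside the 3.56% of all genes that were called. Lists of their size would hold few calls at that share, so the counts below do not set these genes apart. Of 35 tested hair shaft and inner root sheath genes 0 were called, with a median difference of 0.14, and of 18 follicle stem cell genes 0, with a median of -0.20. Lrig1, of the upper follicle, came closest, at 33.59 and 32.56 against 54.09 and 49.21 FPKM (-0.63, adjusted p = 0.0612). Of 19 dermal papilla genes 0 were called, of 24 cell cycle genes 0 (limma), and of 34 epidermal genes 1, Krt2, at 2.61 and 2.39 against 0.96 and 0.93 FPKM (0.85, adjusted p = 0.0367). At an unadjusted p under 0.05 were 2 of the hair shaft, 2 of the stem cell, 3 of the dermal papilla and 3 of the cell cycle genes, against 3186 of all 17669 genes. In the melanocyte list the endothelin receptor Ednrb was the 1 called gene of 15, at 10.92 and 9.36 against 2.49 and 2.15 FPKM (1.74, adjusted p = 0.00264), and Mlana and Pmel did not pass. A p above the threshold does not show that the sides were alike at 2 libraries each.

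Besides muscle genes, the dorsal calls held many multi-copy and non-coding genes. Of the 12 protein-coding genes with the largest dorsal excess, 9 had names of the Gm type, and 6 of these lie close together on chromosome 9. Gm10800 on chromosome 2 was at 14.70 and 22.34 FPKM in ventral skin, 1404.50 and 1759.89 FPKM in dorsal skin and 192.10 to 911.98 FPKM in chin skin (-6.36 ± 0.70, adjusted p = 0.00581). Gm10717 on chromosome 9 was at 1.53 and 0.91 against 99.62 and 123.94 FPKM (-5.67, adjusted p = 0.00551). In each of these the chin libraries lay between the sides and spread widely, with chin replicate 2 the highest. Several of these models are near-copies of each other, so that shared fragments make their single values uncertain. By gene type, 24 of 588 tested genes still to be verified (TEC) were higher in dorsal skin (4.08%), 19 of 174 miRNA genes (10.9%) and 9 of 98 snoRNA genes (9.18%), against 1.24% of all genes. Higher in ventral skin were 0, 3 and 1 of them, against 2.32% of all genes. The miRNA and snoRNA genes are short, with median spans of 120 and 132 bases, and FPKM of such genes in libraries of longer fragments are uncertain. Of the 219 dorsal calls of all types, 40 passed the filter through the dorsal libraries alone, and these were not split by gene type. The dorsal libraries also had the higher estimated depths. What part the filter and the depth had in these shares was not tested.

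The other 5 stages gave libraries that the comparison did not use. Ventral catagen replicate 1 is ventral by its title and source name, but its label for tissue location names the ear. Without it, 2752 genes were higher in ventral and 3034 in dorsal skin in catagen, in place of 3482 and 4037, and the departing genes described below numbered 3156 in place of 3299. The catagen counts of ventral and dorsal higher genes were then 8 and 4 for fat, 0 and 32 for muscle, 3 and 12 for matrix and 2 and 2 for macrophages, and 23 fat and 6 muscle genes departed. In 1 fit over all 43 libraries, 24 of 28 fat genes were higher in ventral skin in refractory telogen and 0 in dorsal skin, where 8.1% and 5.57% of all genes were called. At competent telogen 13 were higher in ventral and 5 in dorsal skin, where the shares of all genes were 38% and 9.89%. In early anagen the counts were 4 and 7 (14% and 27.7% of all genes), in mid anagen 17 and 4 (12.1% and 16.1%), in late anagen 0 and 11 (1.47% and 1.67%) and in catagen 10 and 5 (16.4% and 19%). Refractory telogen departed from the mean of the other 5 stages for 22 of the 28, all towards ventral skin, against 15.5% of all genes in either direction. Adipoq lay at 130.73 to 190.56 FPKM in ventral and 181.89 to 183.22 FPKM in dorsal competent telogen, and the dorsal refractory telogen libraries, at 25.27 and 25.59 FPKM, were the lowest of dorsal skin.

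The muscle difference was not particular to refractory telogen. Of 34 muscle genes, 29 were higher in dorsal skin at competent telogen (9.89% of all genes), 33 in early anagen (27.7%), 17 in mid anagen (16.1%) and 31 in catagen (19%), with at most 1 higher in ventral skin. In late anagen the direction was opposite, with 23 higher in ventral and 4 in dorsal skin (1.47% and 1.67% of all genes). Myh4 showed this order, at 25.2 to 25.83 FPKM in ventral and 5.75 to 6.65 FPKM in dorsal late anagen. The difference of refractory telogen departed from the mean of the other stages for 7 of the 34, of which 5 departed towards ventral skin, against 15.5% of all genes, a share near that background.

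Matrix and macrophage genes changed sign between stages. Of 34 matrix genes, 32 were higher in ventral skin at competent telogen (38% of all genes) and 29 in mid anagen (12.1%), while 29 were higher in dorsal skin in early anagen (27.7%) and 15 in catagen (19%). Of 23 macrophage genes, 15 were higher in ventral skin in mid anagen (12.1% of all genes) and 18 in dorsal skin in early anagen (27.7%). At competent telogen 7 of the 23 were higher in ventral skin, a share below the 38% of all genes. The labels of stages set which libraries were compared. Cell cycle genes had a mean level of 4.79 to 4.99 in ventral competent telogen and 2.31 to 2.46 in ventral early anagen, against 3.75 to 3.77 and 5.13 to 5.15 in dorsal skin, so the order of these stages by cell cycle genes was opposite on the sides. What part the state of growth had in the differences at those stages was not tested.

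Over all genes, 221 of the 410 genes higher in ventral skin (53.9%) were called in the same direction in mid anagen and 211 (51.5%) at competent telogen, where 12.1% and 38% of all genes were. At those stages 30 and 41 had the opposite direction. In early anagen 60 had the same direction and 187 the opposite, and in late anagen 3 and 89. In catagen 72 had the same direction and 115 the opposite. Of the 219 genes higher in dorsal skin, 106 (48.4%) had the same direction in mid anagen and 8 the opposite, where 16.1% of all genes were higher in dorsal skin. In early anagen 89 (40.6%) had the same direction and 76 the opposite (27.7% of all genes in the same direction), at competent telogen 88 (40.2%) and 50 (9.89%), in catagen 83 (37.9%) and 35 (19%), and in late anagen 2 (0.913%) and 54 (1.67%). The same direction at all 5 other stages was found for 0 genes of either side (limma), and 95 of the 410 and 52 of the 219 were called in the same direction at 0 other stages.

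**Figure D5:**
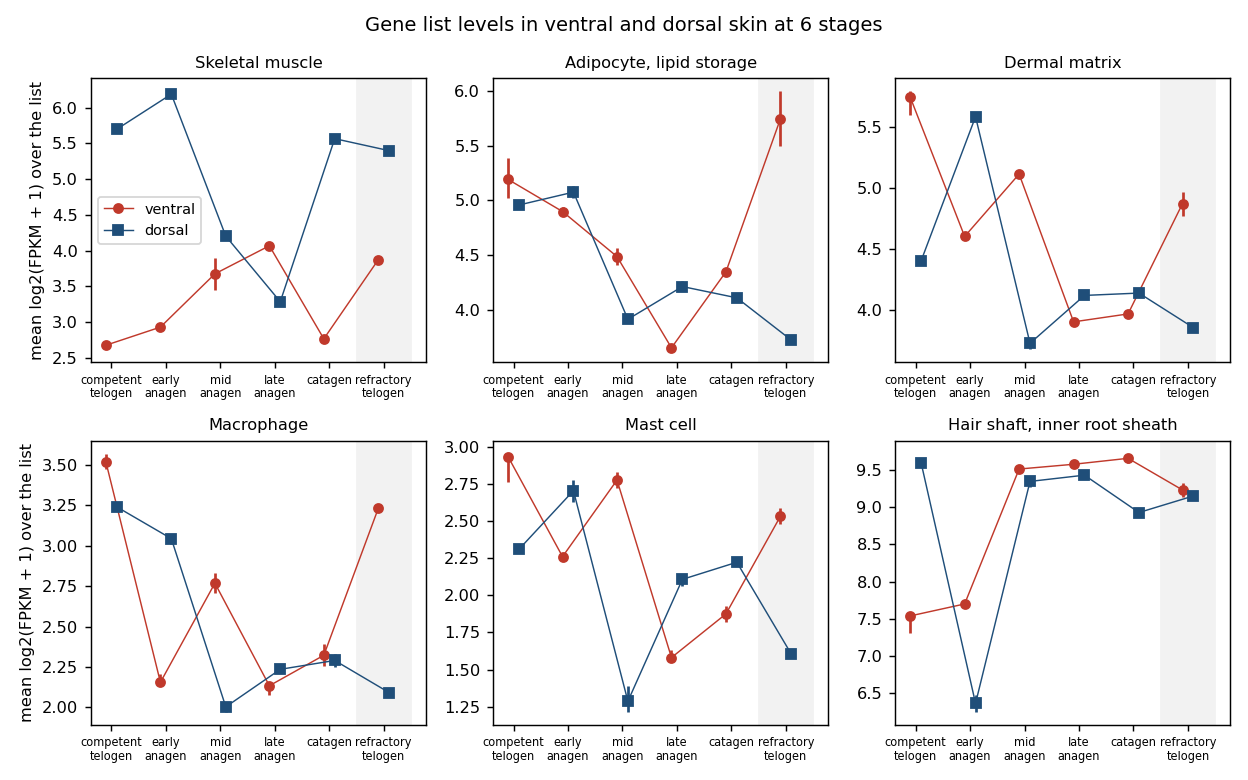
Mean log2(FPKM + 1) of 6 gene lists in ventral and dorsal skin at 6 stages. Points mark the median of 2 or 3 libraries and vertical lines the lowest to highest library. In refractory telogen (shaded) fat, matrix, macrophage and mast cell lists are higher in ventral skin and the muscle list in dorsal skin, while the hair shaft list has medians of 9.23 and 9.15.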

How the data were processed

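The series' 43 skin domain libraries hold 18 conditions, and 7 refractory telogen libraries entered the comparison: 2 ventral, 2 dorsal and 3 chin. Per the submitters' methods, SMART-seq2 libraries of whole skin were sequenced as paired ends, aligned to mm10 with GENCODE vM8 and quantified with RSEM 1.2.25, and samples were corrected for batch effects by a method not given in the sources used here. The authors deposited FPKM per gene with 2 decimals, and counts were not used here. Whether the deposited values are the corrected ones is not stated. The table of ear tissues was not used here.

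Groups and replicates came from the source names in the sample labels, and 1 ventral catagen library has a tissue location label that names the ear. Leaving it out was an alternative chosen after seeing the data. The scale of all fits was log2(FPKM + 1). A gene was tested if 2 or more of the 7 libraries reached 0.5 FPKM. The model had 3 groups and a variance trend (R 4.3.3, limma 3.58.1, statmod 1.5.0), and two-sided p-values were adjusted by Benjamini-Hochberg with a threshold of 0.05. The other 5 stages were fitted on all 43 libraries as 18 groups, with the difference between refractory telogen and their mean as a contrast. Lists are described by counts and medians, with no set test. The members and lists were chosen with earlier results of these data known. Named genes are list members, the 12 protein-coding genes per direction with the largest called difference, a mean of at least 5 FPKM in the higher group and no overlap, up to 6 per direction with the same call at all 6 stages, and up to 6 per direction that departed most from the other stages. The fit was tested on simulated data.

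Depth was estimated from steps of whole fragments in 5673 genes with a single transcript and an assumed fragment length of 200 bases, and covers counting error only. Positions and gene types came from GENCODE vM21 on GRCm38, which 46488 of 46983 genes matched, and promoters from RefSeq. Tables and figures used Python 3.11.15, numpy 2.4.6, pandas 2.3.3 and matplotlib 3.10.9. The alternatives were a pseudocount of 0.1, no filter, a minimum of 5 FPKM, TPM, median of ratios and quantile scaling, no variance trend, the 4 or all 43 libraries, the replicate number as a block, and each library left out.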

Additional observations from a re-analysis of the deposited data

Results flagged for a closer look

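The ventral minus dorsal difference in refractory telogen departed from the mean difference of the other 5 stages for 3299 of 21257 genes (15.5%, limma on 43 libraries, adjusted p under 0.05). Without ventral replicate 1 the count was 5457, and without dorsal replicate 1 and 2 it was 1957 and 1908. The departures below are differences of log2 differences.

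Among the genes named for the largest ventral excess, the departure was 5.17 for Thrsp, 4.90 for Rbp4, 4.48 for Adipoq and 3.82 for Cidec, all genes of fat. It was 4.25 for Krt19 and 3.92 for Upk3a, which is listed at 0 in both dorsal libraries, so that its value depends on the pseudocount. Among the Mup genes it was 6.82 for Mup11, 6.41 for Mup18, 6.33 for Mup10, 5.96 for Mup7, 5.90 for Mup16, 5.80 for Mup9, at 0.10 and 0 FPKM in dorsal skin, and 5.33 for Mup19, and single values of this family are uncertain because its copies share sequence. In each of these genes both ventral libraries were above both dorsal libraries, which the rule for the largest differences required of all but Mup7. The departures use the refractory telogen values that also picked these genes, so they are no independent support.

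On the dorsal side the departure was -4.25 for Sln and -1.53 for Apobec2, both expressed in striated muscle. Their dorsal excess was not particular to refractory telogen. Sln differed by -2.91 at competent telogen, -2.73 in early anagen and -3.56 in catagen, but by 1.53 in mid and 2.20 in late anagen. Apobec2 differed by -4.08, -3.17 and -1.85 at the first 3 of these stages and by -0.86 and 2.01 in mid and late anagen. The departure was -7.62 for Gm10800, -7.34 for Gm10801, -6.81 for Gm10717, -6.65 for Gm10719, -6.43 for Gm10718, -6.32 for Gm10721, -6.26 for Gm21738, -6.19 for Gm11168 and -5.19 for Gm10720. These models changed direction between stages, and all 9 were higher in ventral skin in early anagen. Gm10800 differed by 8.26 in early anagen, -4.05 in mid anagen and 2.87 in catagen, and Gm10717 by 7.42, -4.13 and 2.93. As the same rule required, all 9 of these multi-copy models were higher in both dorsal libraries. Chin replicate 2 was the highest chin library in all 9.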

How the results depend on the processing

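The main counts of 410 ventral and 219 dorsal genes became 259 ventral genes with no filter on low values, 228 ventral genes after rescaling to TPM, 195 and 129 with the 4 libraries alone and 1722 and 1183 with all 43 libraries. Each library left out in turn gave 71 to 970 ventral and 10 to 1833 dorsal genes. The cause of these shifts was not tested. The medians of the muscle, fat, mammary, macrophage, mast cell, matrix, hormone, chemokine, mesothelial and smooth muscle lists kept their sign under every alternative run, while those of the hair shaft and sebaceous gland lists, which lie near 0, changed sign under at least 1. The pseudocount of 0.1 gave medians of -1.93 for skeletal muscle, 0.90 for mammary epithelium, 1.45 for macrophages, 1.59 for mast cells and 1.19 for dermal matrix. The mammary median was 0.50 with no filter and 0.65 with TPM, the matrix median 0.87 with TPM, and the macrophage and mast cell medians 1.39 and 2.05 at a minimum of 5 FPKM. With the 4 libraries alone the macrophage median was 1.13. Over the libraries left out, medians ranged from 0.92 to 1.16 for matrix, from 0.65 to 0.79 for mammary epithelium and from 0.79 to 1.06 for macrophages. For 2 genes that did not pass in the report, 1 ventral library set the sign: Padi3, a hair follicle enzyme, was at 1.36 without ventral replicate 2 (limma, adjusted p = 0.00893) and at -1.39 without ventral replicate 1 (adjusted p = 0.00799), and the chemokine Cxcl14 was at 0.56 (adjusted p = 0.0316) and -0.50 (adjusted p = 0.0235).

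The same direction at all 6 stages was found for 0 genes, for 1 ventral gene at a minimum of 5 FPKM, and for 0 to 2 ventral and 0 to 1 dorsal genes over the libraries left out. The departing genes numbered 1908 to 5457 over the libraries left out. Replicate numbers are shared by the groups without a stated pairing, and the correlation of their replicate differences was 0.05 over genes. With the replicate number as a block the counts were 148 and 86, of which 147 and 84 were among the main calls, and the called genes numbered 9 for muscle, 14 for fat, 5 for mammary epithelium, 6 for macrophages, 2 for mast cells, 4 for hormones, 4 for matrix and 0 for smooth muscle and positional factors (limma).

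The p-values rest on 2 libraries per side, and most calls were lost without either dorsal library: 67 of the 410 and 10 of the 219 were kept without each in turn. The fits used FPKM and do not weigh genes by depth. The effect of the batch correction named in the submitters' methods on the difference of the sides was not tested.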
